A study of Sus scrofa with 30 samples.

Results

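The genes described here carry the signal of leukaemia inhibitory factor (LIF) and interleukin 6 (IL6) from the cell surface to the nucleus. The list held 10 symbols, namely the receptor chains LIFR, IL6R, IL6ST and OSMR, the kinases JAK1 and JAK2, the transcription factor STAT3, the inhibitors SOCS1 and SOCS3, and the kinase gene PIM1. Symbols were matched to the NCBI gene identifiers of the count table, and 9 of the 10 were matched, among 13103 genes in all. LIFR was not analysed here.

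RNA of 30 single porcine embryos was sequenced, from Days 8, 10 and 12 after insemination, and each of these 3 days had 5 embryos of either sex, 10 in all. The dams were German Landrace × Pietrain gilts synchronised with hormones, the semen came from a single Pietrain boar, and 4 gilts were slaughtered per day. Every library held 1 whole embryo, with embryonic disc and trophectoderm together, and no embryo was treated. By the paper's account, at least 1 female and 1 male embryo of each day were taken from the same dam. Which gilt carried which embryo was not stated, so embryos of 1 litter could not be separated from those that share the sire alone. The p-values measure only the spread between these embryos.

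Cytokines of the IL6 family bind a receptor chain of their own, such as IL6R, LIFR or OSMR, and most signal through the shared chain IL6ST, also called gp130. The bound receptors activate Janus kinases, which phosphorylate STAT3, and STAT3 then enters the nucleus and switches on genes that include those of its own inhibitors. The pathway is known for its part in pluripotent cells and, in several mammals, in the dialogue between the embryo and the uterus before attachment. Porcine embryos grow from small spheres into long filaments over the days studied.

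Levels are read counts scaled to the size of the library (CPM) with the factors of the trimmed mean of M values (TMM), given as mean ± SD of the 10 embryos of a day. Total counts ran from 6068212 in Day 12 female d12_f_245 to 34002508, and the 3 counts taken as the floor were 0.434 CPM in the smallest library. This floor covers counting error only, and no member was at or under it in any embryo. Day 12 females d12_f_245 and d12_f_271 lay farthest from the other embryos of their day, at mean distances in log2 CPM of 138.8 and 119.6, while the other 8 lay between 86.6 and 107.7. Changes of the members up to Day 12 and their sex differences on that day are therefore given with and without these 2 libraries.

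A gene was called differentially expressed (DEG) between days when its log2 fold change was beyond 1 and its false discovery rate (FDR) was under 0.001, with edgeR's quasi-likelihood test and Benjamini-Hochberg adjustment over all genes. STAT3, OSMR and SOCS1 were DEG higher on Day 12 than on Day 10. SOCS3 rose earlier, between Days 8 and 10, and had nearly the same mean on Day 12. IL6R was lower on Day 10 than on Day 8, although its call was close to the limits. IL6ST, JAK1, JAK2 and PIM1 were not DEG in any comparison of days.

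Between Days 8 and 10, 1 of the 9 members was a DEG higher on Day 10, where 9.88% of all genes were, and 1 was lower, against 4.20% of all genes. Between Days 10 and 12, 3 members were DEG higher, against 14.9% of all genes, and 0 were lower, against 8.39%. From Day 8 to Day 12, 4 members were higher, against 22.0% of all genes, and 1 was lower, against 10.4%. The median log2 fold change of the members was 0.01, -0.20 and 0.15 in these comparisons, beside 0.03, 0.04 and 0.09 over all genes. The embryos of Days 8 and 10 did not overlap for 1 member, against 22.0% of all genes, and those of Days 10 and 12 for 2 members, against 16.6%. These comparisons share embryos and are not independent of each other. In whole embryos, fewer cells of a type and less RNA per cell cannot be told apart.

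**Figure D1:**
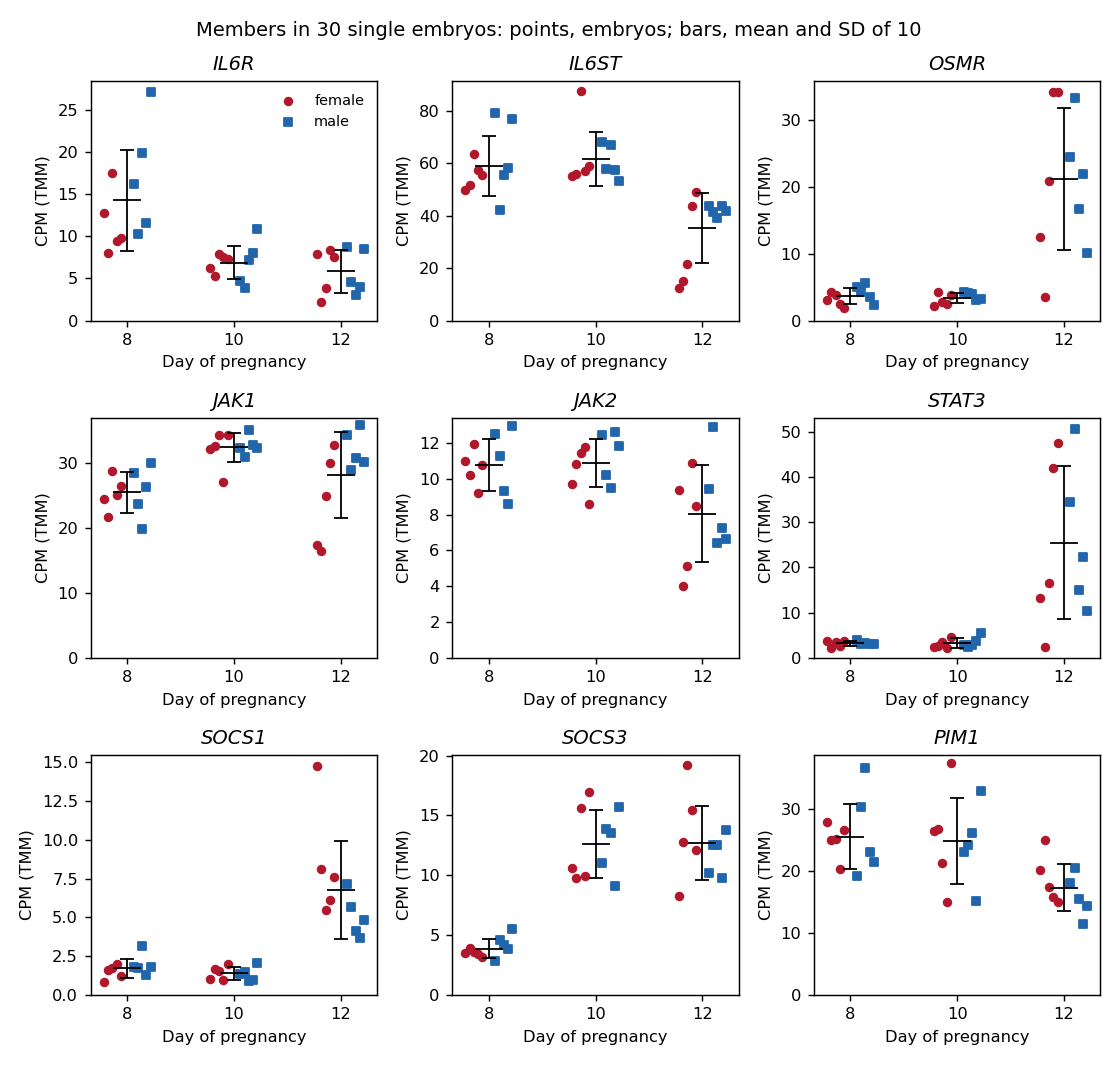
CPM of the 9 members (vertical axes, each from 0) by day (horizontal axes) in female embryos (red circles) and male embryos (blue squares), with bars for the mean and SD of the 10 embryos of a day. OSMR, STAT3 and SOCS1 were highest on Day 12, SOCS3 was low on Day 8 alone, and the Day 12 embryos of STAT3 ran from 2.34 to 50.7 CPM.

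The receptor chains took 3 different courses. IL6R, the chain that binds IL6 itself (chromosome 4, 95322426 to 95381393 in Sscrofa11.1), ran from 8.04 to 27.2 CPM on Day 8 with a median of 12.2. It ran from 3.91 to 10.9 CPM on Day 10 with a median of 7.27, and from 2.22 to 8.70 CPM on Day 12 with a median of 6.04. Of the Day 10 embryos, 9 lay under every Day 8 embryo, and male d10_m_453 was the exception. The mean fell from 14.3 ± 5.98 to 6.90 ± 1.99 CPM between Days 8 and 10, a log2 fold change of -1.05 ± 0.24 (SE, FDR = 0.000554). The call was lost when any 1 of 8 embryos was left out, namely Day 8 female d08_f_124 or males d08_m_103, d08_m_121 or d08_m_136, or Day 10 females d10_f_315 or d10_f_317 or males d10_m_318 or d10_m_321. The value without one of these lay between -1.03 and -0.90, the last without Day 8 male d08_m_136, which held the highest level. It was lost as well in female embryos alone (-0.76, FDR = 0.0666) and in male embryos alone (-1.29, FDR = 0.00904). Between Days 10 and 12 the level of 5.86 ± 2.56 CPM gave a log2 fold change of -0.24 ± 0.25 (FDR = 0.408), within the spread of the embryos, and -0.19 without females d12_f_245 and d12_f_271. Over the whole span from Day 8 to Day 12, IL6R fell by 1.29 on the log2 scale (SE 0.25, FDR = 2.67e-05), and this call held without each single embryo and without both of those females (-1.24). It was lost in female embryos alone (-1.04, FDR = 0.00863), in male embryos alone (-1.57, FDR = 0.00152) and when tested against 1 on the log2 scale (FDR = 0.136).

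OSMR, the receptor chain for oncostatin M (chromosome 16, 24041312 to 24101842), lay low on the first 2 days studied. The Day 8 embryos ran from 1.84 to 5.63 CPM with a median of 3.68, and the Day 10 embryos from 2.15 to 4.31 CPM with a median of 3.52. On Day 12 the range was 3.48 to 34.2 CPM with a median of 21.4. Of the Day 12 embryos, 9 lay above every Day 10 embryo, while female d12_f_271, at 3.48 CPM, stayed inside the Day 10 range. The difference between the means of 3.65 ± 1.20 CPM (Day 8) and 3.40 ± 0.78 CPM (Day 10) lay within the spread of the embryos (log2 fold change -0.10 ± 0.27, FDR = 0.761). The rise to 21.2 ± 10.7 CPM on Day 12 was 6.24-fold, or 2.64 ± 0.28 on the log2 scale (FDR = 1.46e-09). Without Day 12 females d12_f_245 and d12_f_271 it was 2.85.

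IL6ST, the signal chain shared by most receptors of the family (chromosome 16, 35101304 to 35151832), had its highest levels on the first 2 days. The embryos ran from 42.2 to 79.2 CPM on Day 8 with a median of 56.6, and from 53.1 to 87.6 CPM on Day 10 with a median of 57.6. On Day 12 they ran from 12.4 to 48.9 CPM with a median of 41.5, and all 10 lay under every Day 10 embryo. The Day 12 embryos were uneven. Females d12_f_245, d12_f_271 and d12_f_289 held 12.4, 15.2 and 21.6 CPM, and the other 7 embryos lay between 39.2 and 48.9 CPM. The mean went from 61.8 ± 10.3 to 35.2 ± 13.4 CPM between Days 10 and 12, a log2 fold change of -0.81 ± 0.18 (FDR = 0.000332). This passed the FDR limit and not the limit on the fold change, so IL6ST was not a DEG. Without Day 12 females d12_f_245 and d12_f_271 the change was -0.61 (FDR = 0.000155), and the mean of the 8 remaining embryos was 40.5 ± 8.13 CPM.

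Neither kinase was a DEG. JAK1 (chromosome 6, 147320288 to 147567188), which phosphorylates the bound receptors and STAT proteins, ran from 19.9 to 29.98 CPM on Day 8 with a median of 25.8. On Day 10 it ran from 27.2 to 35.1 CPM with a median of 32.6, and on Day 12 from 16.4 to 36.0 CPM with a median of 30.1. The log2 fold change was 0.35 ± 0.11 between Days 8 and 10 (FDR = 0.00881) and -0.20 ± 0.11 between Days 10 and 12 (FDR = 0.122), where scaling by library size alone gave 0.001 and the fit without females d12_f_245 and d12_f_271 gave -0.07. Neither reached the limit on the fold change. On Day 12 the lowest 3 embryos for JAK1 were females d12_f_271, d12_f_245 and d12_f_289, at 16.4, 17.4 and 24.9 CPM, which were the lowest 3 for IL6ST too.

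JAK2 (chromosome 1, 216849744 to 217002310), a second kinase of this family, stood at 10.8 ± 1.46 CPM on Day 8 and 10.9 ± 1.36 CPM on Day 10. The ranges were 8.61 to 13.0 CPM with a median of 10.9, and 8.59 to 12.6 CPM with a median of 11.2. They overlapped almost wholly. On Day 12 the embryos ran from 4.02 to 12.9 CPM with a median of 7.87, and 6 of the 10 lay under every Day 10 embryo. The difference from Day 10 was -0.44 ± 0.15 (log2, FDR = 0.0114), short of both limits, and -0.38 without the same pair of females.

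STAT3, the transcription factor at the centre of the pathway (chromosome 12, 20407316 to 20471091), had the largest change among the members. It ran from 2.23 to 3.81 CPM on Day 8 with a median of 3.17, and from 2.23 to 5.49 CPM on Day 10 with a median of 2.76. On Day 12 it ran from 2.34 to 50.7 CPM with a median of 19.4. The first 2 of these days overlapped, whereas 9 of the 10 Day 12 embryos lay above every embryo of Day 10. From Day 8 to Day 10 the means of 3.16 ± 0.51 and 3.24 ± 1.09 CPM gave a log2 fold change of 0.04 ± 0.32 (FDR = 0.933). The mean on Day 12 was 25.5 ± 17.0 CPM, which was 7.85-fold that of Day 10, or 2.97 ± 0.33 on the log2 scale (FDR = 4.44e-09). Without Day 12 females d12_f_245 and d12_f_271 the log2 fold change was 3.20 (FDR = 6.73e-12).

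**Figure D2:**
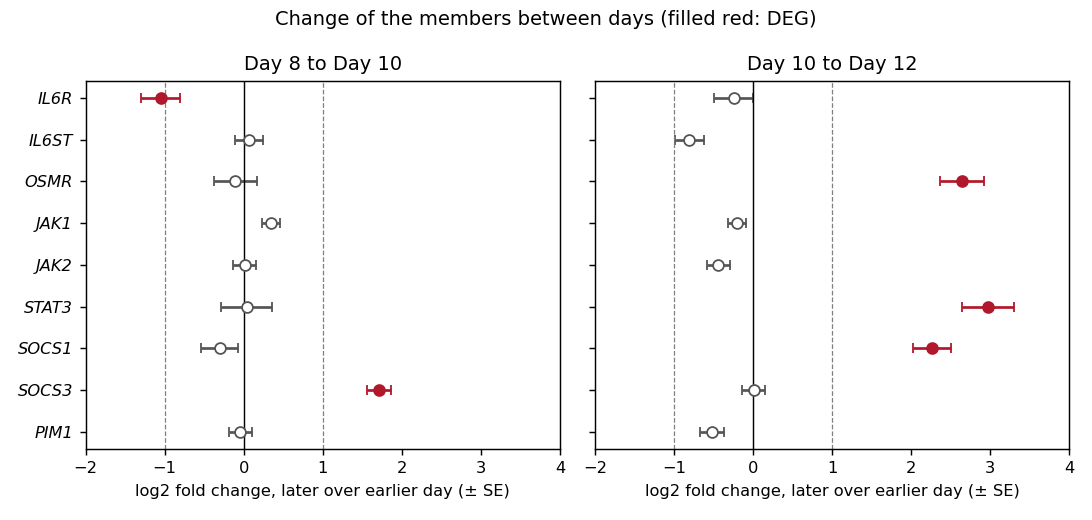
Log2 fold change of each member (horizontal axes, later over earlier day, bars for the SE) between Days 8 and 10 and between Days 10 and 12, with dashed lines at -1 and 1. SOCS3 rose and IL6R fell in the earlier interval, and OSMR, STAT3 and SOCS1 rose in the later one (filled red, DEG).

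Within Day 12 the level of STAT3 differed 21.7-fold between the highest and the lowest embryo, against 1.71-fold within Day 8 and 2.47-fold within Day 10. In rising order, female d12_f_271 held 2.34 CPM, male d12_m_307 held 10.4, female d12_f_245 held 13.2, male d12_m_276 held 14.9 and female d12_f_289 held 16.5 CPM. Male d12_m_286 followed at 22.3 CPM, male d12_m_249 at 34.5, female d12_f_297 at 42.0, female d12_f_299 at 47.6 and male d12_m_275 at 50.7 CPM. Both sexes were present at the low and at the high end. The 4 embryos with the most STAT3 were also the 4 with the most OSMR, at 24.5, 34.2, 34.2 and 33.3 CPM in the same order, and female d12_f_271 was the lowest for both. By contrast, only 1 of these 4 embryos was among the 4 with the most SOCS3.

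The same 4 embryos held the highest summed level of 5 hypoblast markers (FOXA2, GATA4, GATA6, PDGFRA and SOX17), at 721.0, 742.3, 771.5 and 1182 CPM. The other 6 embryos ran from 141.2 CPM in female d12_f_271 to 423.1 CPM in female d12_f_245. The receptor gene PDGFRA ran from 43.9 CPM in female d12_f_271 to 909.9 CPM in male d12_m_275, and the 4 embryos highest for it were again those highest for STAT3. At 523.7, 514.8, 563.6 and 909.9 CPM in the same order, PDGFRA gave most of the sum in each of these 4 embryos. The match of the sum with STAT3 is thus not separate from that of PDGFRA. For GATA4, GATA6, SOX17 and FOXA2, 3 of the 4 highest embryos were among those 4. Female d12_f_245, which was the third lowest for STAT3, was the highest for GATA4 (126.6 CPM), SOX17 (98.8 CPM) and FOXA2 (24.9 CPM), and came next to male d12_m_275 for GATA6 (63.4 CPM). None of the 4 was among the 4 highest for the summed trophectoderm markers, for which female d12_f_271 had the most (26510 CPM) and male d12_m_275 the least (8569 CPM). KRT8 and KRT18 gave most of this sum in female d12_f_271, at 17100 and 8126 CPM. That female was also the highest for CDX2. Other embryos were highest for GATA3 (d12_f_245), GATA2 and TFAP2C (d12_m_276), TEAD4 (d12_m_307) and ELF5 (d12_f_289). Between Days 10 and 12, 3 of the 5 hypoblast markers were DEG higher, against 14.9% of all genes, and 0 were lower, against 8.39%. The hypoblast sum ran from 269.2 to 392.1 CPM on Day 8 and from 138.0 to 181.5 CPM on Day 10. On Day 12 it ran from 141.2 to 1182 CPM. The part of hypoblast cells in the levels of STAT3 and OSMR was not tested.

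**Figure D3:**
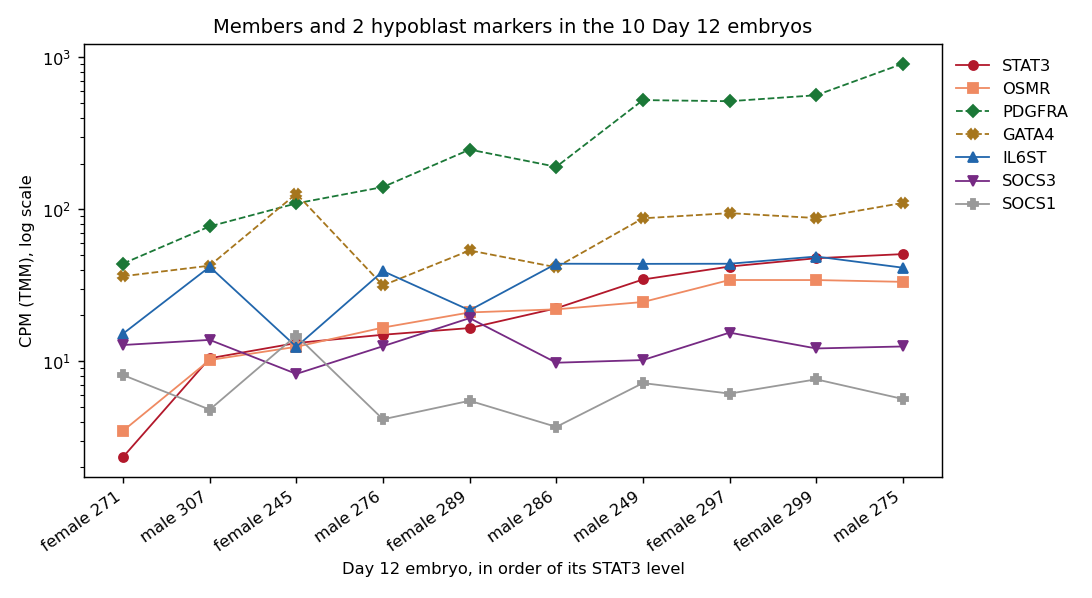
CPM on a log scale (vertical axis) of 5 members and the hypoblast markers PDGFRA (dashed green) and GATA4 (dashed brown) in the 10 Day 12 embryos, placed along the horizontal axis in order of their STAT3 level. OSMR and PDGFRA are lowest in female d12_f_271, at 3.48 and 43.9 CPM, and high in the 4 embryos on the right, whereas GATA4 is highest in female d12_f_245, at 126.6 CPM, and SOCS3 lies between 8.25 and 19.2 CPM throughout.

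The inhibitors rose at different times. SOCS3, which binds the receptor complex and blocks the kinases (chromosome 12, 3643832 to 3647015), ran from 2.80 to 5.54 CPM on Day 8 with a median of 3.71. It ran from 9.13 to 16.9 CPM on Day 10 with a median of 12.3, and all 10 embryos lay above every Day 8 embryo. On Day 12 the range was 8.25 to 19.2 CPM with a median of 12.5, nearly that of Day 10. The rise between Days 8 and 10, from 3.85 ± 0.78 to 12.6 ± 2.86 CPM, was 3.27-fold, or 1.71 ± 0.15 on the log2 scale (FDR = 6.98e-11). Between Days 10 and 12 the log2 fold change was 0.01 ± 0.14 (FDR = 0.969), and 0.06 without females d12_f_245 and d12_f_271.

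SOCS1, an inhibitor that binds the Janus kinases directly (chromosome 3, 31879143 to 31883041), ran from 0.845 to 3.17 CPM on Day 8 with a median of 1.71, and from 0.888 to 2.06 CPM on Day 10 with a median of 1.40. On Day 12 it ran from 3.69 to 14.8 CPM with a median of 5.88, with no overlap with Day 10. Female d12_f_245 was the highest of that day, at 14.8 CPM, and female d12_f_271 followed at 8.10 CPM. The means were 1.72 ± 0.62, 1.39 ± 0.43 and 6.75 ± 3.16 CPM. The log2 fold change was -0.30 ± 0.24 between Days 8 and 10 (FDR = 0.281) and 2.26 ± 0.24 between Days 10 and 12 (FDR = 1.4e-09). Without females d12_f_245 and d12_f_271 the rise was 2.001, from 8 embryos with a mean of 5.58 ± 1.37 CPM.

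PIM1, a kinase gene that STAT3 is known to switch on (chromosome 7, 32788246 to 32793882), was not higher on Day 12, when STAT3 was. It ran from 19.1 to 36.5 CPM on Day 8 with a median of 25.1, from 14.9 to 37.3 CPM on Day 10 with a median of 25.1, and from 11.4 to 25.0 CPM on Day 12 with a median of 16.6. The embryos of all days overlapped. Between Days 10 and 12 the mean went from 24.8 ± 6.97 to 17.3 ± 3.83 CPM, a log2 fold change of -0.52 ± 0.15 (FDR = 0.0037), which did not make it a DEG. Without females d12_f_245 and d12_f_271 it was -0.63 (FDR = 0.00071). Female d12_f_271, the lowest Day 12 embryo for STAT3, was the highest of that day for PIM1, at 25.0 CPM.

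Ratios of members within an embryo do not use the scaling of its library. They were taken as the log2 ratio of counts with 2 counts added to each, and 3 ratios were compared over 2 intervals by a two-sided permutation test with 100000 resamples and adjustment over the 6 tests. Counts were not divided by transcript length, so only changes of a ratio are read here and not its level. The ratio of OSMR to IL6ST lay between -4.97 and -3.26 on Day 8. Its range was -4.97 to -3.69 on Day 10, and -2.09 to 0.00 for the Day 12 embryos. It moved by -0.14 between Days 8 and 10 (permutation test, adjusted p = 0.539) and rose by 3.33 between Days 10 and 12 (permutation test, adjusted p = 4e-05, raw p = 2e-05, the smallest these resamples can give). All 10 embryos of Day 12 lay above those of Day 10, female d12_f_271 included.

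The ratio of IL6R to IL6ST went from -2.11 ± 0.43 on Day 8 to -3.18 ± 0.48 on Day 10, lower by 1.07 (permutation test, adjusted p = 0.00021). On Day 12 it stood at -2.57 ± 0.84, and the difference of 0.61 from Day 10 did not pass the test (permutation test, adjusted p = 0.0611). Female d12_f_245 lay at -0.63, above all others, and without it the difference was 0.39 (permutation test, adjusted p = 0.12).

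The ratio of SOCS3 to STAT3 moved in opposite directions in the 2 intervals. It was 0.27 ± 0.43 on Day 8 and 1.96 ± 0.34 on Day 10 without overlap, a rise of 1.69 (permutation test, adjusted p = 4e-05). It dropped to -0.62 ± 1.37 on Day 12, a difference of -2.58 (permutation test, adjusted p = 4e-05). On Day 12 the embryos ran from -2.01 to 2.39, and the highest, female d12_f_271, lay inside the Day 10 range of 1.32 to 2.47. In female embryos alone this last difference was -2.31 (exact permutation test, adjusted p = 0.0571).

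**Figure D4:**
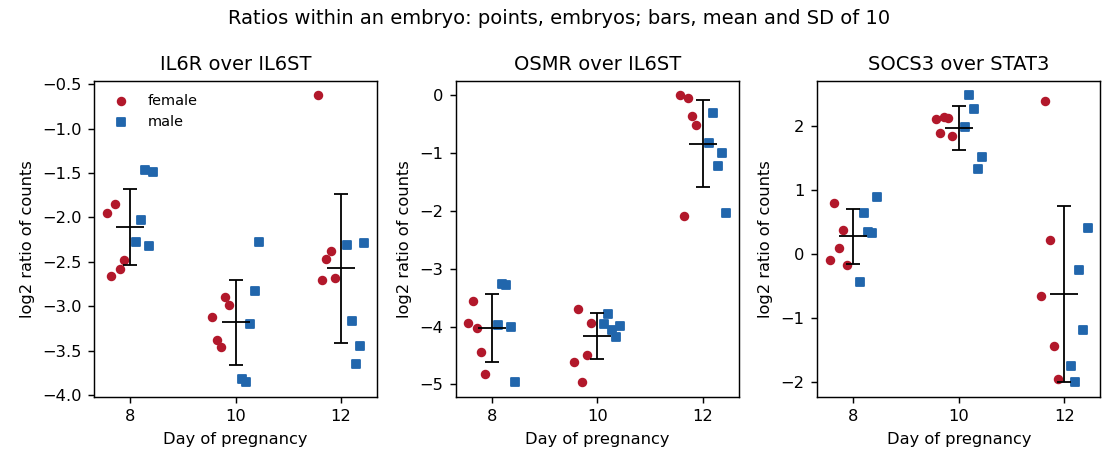
Log2 ratio of counts within an embryo (vertical axes) by day (horizontal axes) for IL6R over IL6ST, OSMR over IL6ST and SOCS3 over STAT3, with female embryos as red circles, male embryos as blue squares and bars for the mean and SD of 10 embryos. The ratio of OSMR to IL6ST rose without overlap between Days 10 and 12, and that of SOCS3 to STAT3 was highest on Day 10, at 1.96 ± 0.34.

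No member was a DEG between female and male embryos on any day, at an FDR under 0.05. The edgeR quasi-likelihood test called 0 of the 9 members on each day, where it called 0.658% of all genes for Day 8, 0.223% for Day 10 and 0.123% for Day 12. The robust GLM of edgeR called 0 members as well, beside 1.37%, 0.36% and 0.827% of the genes it tested on the 3 days. DESeq2 called 0 members, beside 1.13%, 0.454% and 1.63% of genes. A fit of all 30 embryos called 0 members, beside 0.275%, 0.214% and 20.3% of genes. At an unadjusted p under 0.05 there were 0, 0 and 1 members on the 3 days, where 4.59%, 2.36% and 22.7% of all genes passed.

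The 1 member was SOCS1 on Day 12, with 8.41 ± 3.70 CPM in the 5 females and 5.09 ± 1.38 CPM in the 5 males. The log2 difference, female minus male, was 0.76 ± 0.32 (edgeR quasi-likelihood test, FDR = 0.205), and the sexes overlapped. IL6ST on Day 12 had 28.4 ± 16.8 CPM in the females and 42.0 ± 1.93 CPM in the males, so that the female embryos spread far more widely, and the difference was -0.54 ± 0.33 (FDR = 0.33). JAK1 on Day 12 stood at 24.3 ± 7.35 against 32.1 ± 2.97 CPM, a difference of -0.37 ± 0.19 (FDR = 0.254). STAT3 on Day 12 had 24.3 ± 19.5 CPM in the females and 26.6 ± 16.3 CPM in the males, and its difference of -0.11 ± 0.65 (FDR = 0.927) leaves a wide interval. Females d12_f_245 and d12_f_271 were the highest of the day for SOCS1 and the lowest for IL6ST and JAK1. Without both, 3 females were set against 5 males in the same test, which called 0 members and 15 of 12220 genes. At an unadjusted p under 0.05 there were 0 members and 886 of these genes, where 2775 passed with both females kept. SOCS1 then had 6.40 ± 1.08 CPM in the females and a difference of 0.33 ± 0.26 (FDR = 0.69). The differences became -0.13 for IL6ST (FDR = 0.857) and -0.13 for JAK1 (FDR = 0.752), and that of STAT3 turned to 0.41 ± 0.53 (FDR = 0.802). SOCS3 went from 0.235 to 0.41 (FDR = 0.627). OSMR went from 0.003 to 0.48 (FDR = 0.664), and IL6R, JAK2 and PIM1 stood at 0.20, -0.06 and 0.015. Before Day 12, the largest difference among the members was that of IL6R on Day 8, with 11.5 ± 3.75 CPM in the females and 17.1 ± 6.88 CPM in the males (-0.56 ± 0.28, FDR = 0.999).

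Whether a sex difference changed between days was tested with an interaction of sex and day in edgeR. It called 0 members, and 0% of all genes, in either interval. At an unadjusted p under 0.05 it found 0 members, beside 0.763% of all genes between Days 8 and 10 and 18.9% between Days 10 and 12, and DESeq2 called 0 members. The largest interaction among the members was that of SOCS1 between Days 10 and 12, 0.62 ± 0.43 (FDR = 0.433). This value includes females d12_f_245 and d12_f_271, without which the sex difference of SOCS1 on Day 12 was 0.33 in place of 0.76.

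Besides the members, 55 other genes of the pathway were analysed. Between Days 8 and 10, 3 of them were DEG higher and 4 lower, against 9.88% and 4.20% of all genes, with a median log2 fold change of -0.06. Between Days 10 and 12, 16 were higher, against 14.9% of all genes, and 4 lower, against 8.39%, with a median of 0.36, where all genes had 0.04. From Day 8 to Day 12, 19 were higher, against 22.0% of all genes, and 6 lower, against 10.4%. The fit without females d12_f_245 and d12_f_271 gave the same calls in the 2 intervals, while from Day 8 to Day 12 it lost 1 call and gained 1.

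Of 11 listed ligands, LIF and CNTF were analysed. LIF, the cytokine for which LIFR is the receptor, ran from 0.159 to 0.892 CPM on Day 8 with a median of 0.518, where 1 embryo was at the floor. It ran from 0.319 to 1.83 CPM on Day 10 with a median of 1.17, and from 4.20 to 15.5 CPM on Day 12 with a median of 6.47. The Day 12 embryos lay above all others. The rise from 1.22 ± 0.46 to 7.93 ± 3.40 CPM between Days 10 and 12 was 2.70 ± 0.29 on the log2 scale (FDR = 2.69e-09), and 2.83 without those females. Its lowest Day 12 embryo was female d12_f_245 and its highest female d12_f_289. CNTF, a neurotrophic ligand of the family, had 1.36, 1.30 and 1.45 CPM on average on the 3 days and was not a DEG.

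The 3 other receptor chains held 1 DEG higher between Days 8 and 10, against 9.88% of all genes. They held 1 between Days 10 and 12, against 14.9%. In either interval 0 were lower, against 4.20% and 8.39% of all genes. CNTFR was not a DEG in these intervals, with log2 fold changes of -0.085 (FDR = 0.849) and -0.345 (FDR = 0.397). IL11RA, the receptor for interleukin 11, was higher on Day 10 than on Day 8 (3.20 ± 1.07 against 1.59 ± 0.36 CPM, log2 fold change 1.01, FDR = 9.84e-05). IL27RA, which pairs with IL6ST to bind interleukin 27, was higher on Day 12 than on Day 10 (12.3 ± 5.26 against 3.98 ± 1.05 CPM, 1.63, FDR = 2.9e-07). Among 6 other kinases and STAT genes, 0 were DEG in the first interval. An FDR under 0.05 alone was passed by 2, where 56.1% of all genes passed it. In the second interval 3 were DEG higher, against 14.9% of all genes, and 0 lower, against 8.39%. JAK3 rose from 0.306 ± 0.134 to 1.89 ± 0.74 CPM (2.59, FDR = 1.28e-09) and STAT5A from 3.19 ± 1.28 to 9.18 ± 5.43 CPM (1.51, FDR = 3.28e-05) between Days 10 and 12.

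Of 14 other inhibitors and phosphatases, 0 were DEG between Days 8 and 10, while 2 rose and 1 fell between Days 10 and 12. Over all genes, 9.88% rose and 4.20% fell in the first of these intervals, and 14.9% and 8.39% in the second. CISH, a SOCS family inhibitor of STAT5 signals, rose from 0.690 ± 0.258 to 2.03 ± 0.79 CPM (1.56, FDR = 2.86e-06). PTPN1, a phosphatase that acts on Janus kinases, rose from 28.5 ± 2.48 to 68.1 ± 18.2 CPM (1.26, FDR = 1.13e-10). SOCS6 fell from 41.7 ± 6.72 to 18.2 ± 2.62 CPM (-1.19, FDR = 7.62e-13), and its days did not overlap. SOS1, which couples receptors to Ras, was the only DEG of 7 adaptors and proteases in these 2 intervals (24.4 ± 2.34 against 52.7 ± 29.1 CPM between Days 10 and 12, 1.11, FDR = 1.67e-05).

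Among 23 other genes described as targets of STAT3, 2 rose and 4 fell between Days 8 and 10, against 9.88% and 4.20% of all genes. Between Days 10 and 12, 8 rose and 3 fell, against 14.9% and 8.39% of all genes. In the later interval CCND1, a D-type cyclin that drives cells towards division, rose most, from 2.003 ± 0.79 to 47.0 ± 15.0 CPM (log2 fold change 4.55 ± 0.26, FDR = 8.52e-16). TIMP1, an inhibitor of matrix proteases, rose from 1.81 ± 1.40 to 27.5 ± 15.7 CPM (3.90, FDR = 3.31e-10). The falls were led by BCL2L1, which protects cells from apoptosis, from 246.5 ± 56.1 to 56.8 ± 14.6 CPM (-2.12, FDR = 2.23e-14), and by KLF5, a factor of trophectoderm and pluripotent cells, from 42.3 ± 8.50 to 13.5 ± 6.16 CPM (-1.65, FDR = 4.17e-08).

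Some targets changed direction between the 2 intervals and others did not. BCL2L1 had risen between Days 8 and 10, from 115.6 ± 16.5 CPM (1.09, FDR = 4.35e-08), before it fell. TFCP2L1, a factor of naive pluripotency, fell from 8.96 ± 2.57 to 2.50 ± 1.18 CPM between Days 8 and 10 (-1.85, FDR = 7.74e-07) and stood at 14.1 ± 6.26 CPM on Day 12. PIM2, a relative of PIM1, fell from 29.8 ± 3.85 to 9.74 ± 2.35 CPM (-1.61, FDR = 4.44e-08) between Days 8 and 10. It fell again between Days 10 and 12 (-1.31, FDR = 1.47e-06). IER3, a gene of the early stress response, rose from 0.638 ± 0.239 to 1.80 ± 1.48 CPM (1.5, FDR = 0.000357) between Days 8 and 10. Its change between Days 10 and 12 was 0.81 (FDR = 0.0301), which did not make it a DEG.

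**Figure D5:**
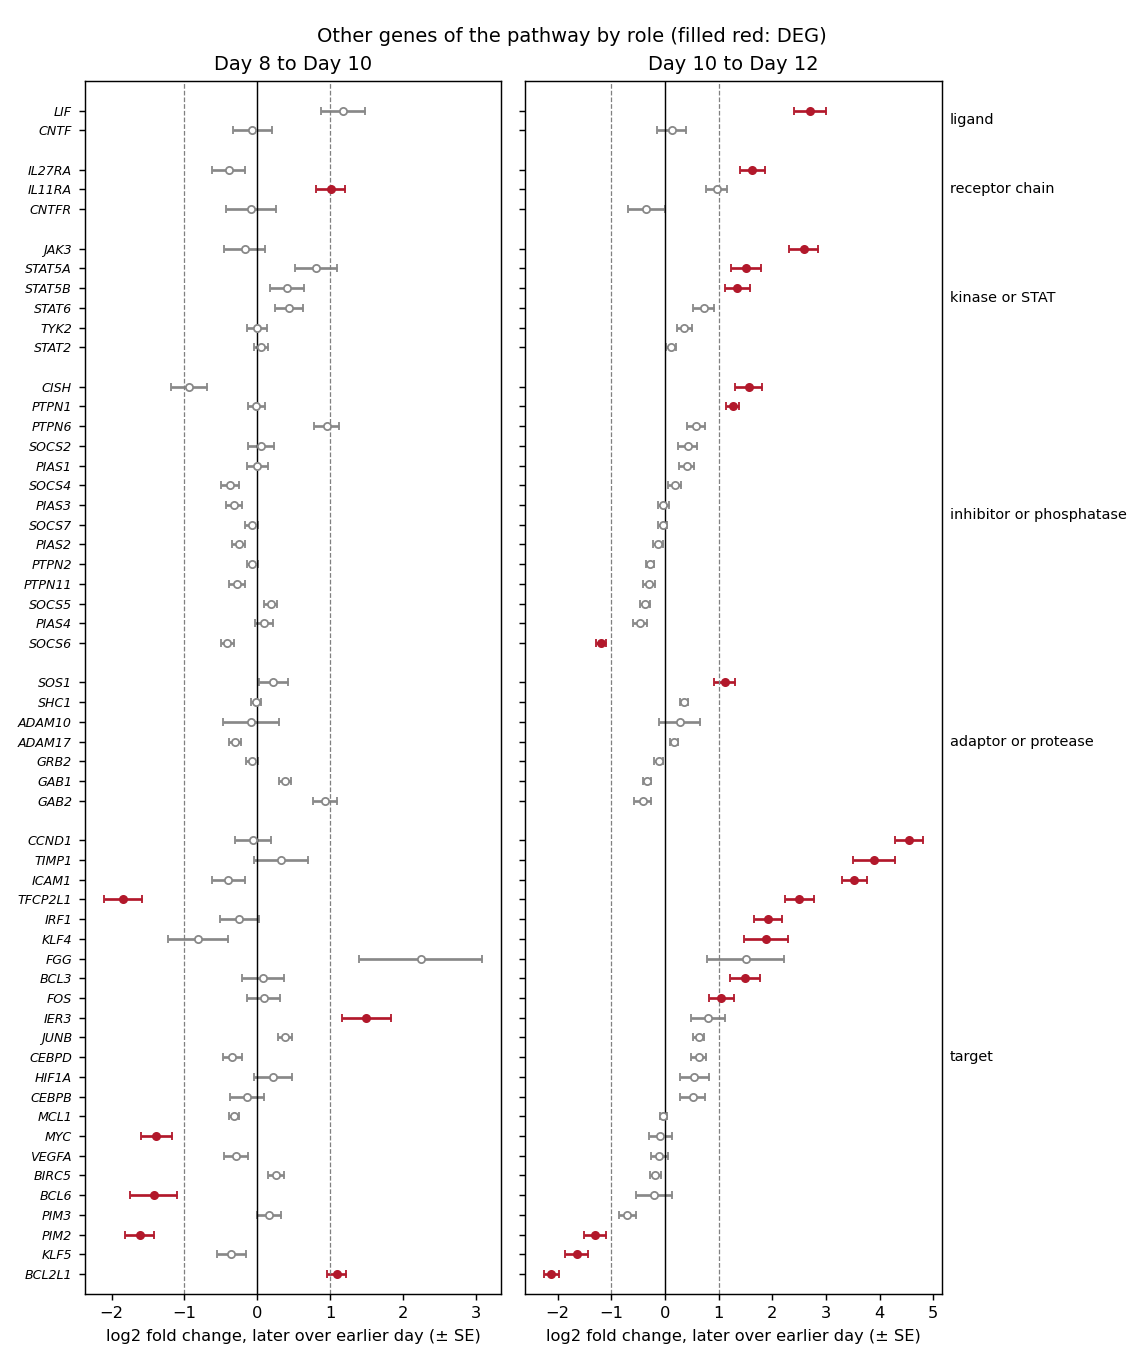
Log2 fold change (horizontal axes, later over earlier day, bars for the SE) of the 55 other genes of the pathway, grouped by role, between Days 8 and 10 and between Days 10 and 12, with dashed lines at -1 and 1. Of these genes 7 were DEG (filled red) in the earlier interval and 20 in the later one, with LIF, CCND1 and TIMP1 among the largest rises.

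Markers of the cell types of an embryo and of the uterus were summed in each library. Epiblast markers (6 of 6 listed genes analysed) had median sums of 52.9, 611.8 and 82.3 CPM on Days 8, 10 and 12. Of these sums TDGF1 alone gave means of 13.99, 685 and 90.4 CPM. The other epiblast markers fell between Days 8 and 10, with log2 fold changes from -1.64 (PRDM14) to -0.71 (NANOG). POU5F1 had means of 30.9, 14.4 and 1.72 CPM on the 3 days. On Day 12 the epiblast markers NODAL, SOX2, PRDM14 and NANOG had means of at most 0.048 CPM, and NODAL had 0 counts in all 10 embryos. Trophectoderm markers (8 of 8) had medians of 23720, 42300 and 13120 CPM, and KRT8 and KRT18 gave most of this sum. Their means were 24500 and 16630 CPM on Day 10, and 10220 and 3585 CPM on Day 12. Between those days 4 of the 8 markers were DEG lower, against 8.39% of all genes. GATA3 alone was a DEG higher, where 14.9% of all genes were. Mesoderm and primitive streak markers (2 of 6, HAND1 and EOMES) had medians of 2.32, 69.2 and 1064 CPM. HAND1 gave nearly all of this sum on Days 10 and 12, with means of 77.1 and 1065 CPM. EOMES went the other way between these days, from 2.64 ± 0.98 to 0.032 ± 0.030 CPM (log2 fold change -6.01, FDR = 1.56e-14). All 10 Day 12 embryos were at or under the floor for EOMES. Of the 4 Day 12 embryos with the most STAT3, 1 was among the 4 with the most HAND1. Leukocyte and blood markers (2 of 8, ITGAM and HBB) had medians of 41.8, 35.2 and 53.2 CPM. ITGAM had means of 42.1, 34.8 and 50.6 CPM. Endometrial markers (5 of 7, ESR1, ACP5, FGF7, MUC1 and LGR5) had medians of 2.44, 3.71 and 13.6 CPM. Their Day 10 sums ran from 0.888 to 73.3 CPM, with FGF7 at 59.98 CPM in male d10_m_453. From Day 8 to Day 12 LGR5 fell (log2 fold change -7.06), while the others rose by 2.02 (ESR1) to 5.89 (FGF7). The part of the cell types marked here in the changes of the members was not tested.

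For IL6ST, STAT3 and SOCS3, the genes with the most similar course were found over the 30 embryos by the root mean square difference of log2 CPM, each centred on its own mean, among 13094 genes. ZFYVE16, PIKFYVE and SHPRH lay nearest to IL6ST, at 0.19, 0.20 and 0.20. ADAMTS9, SALL1 and VCAN lay nearest to STAT3, at 0.51, 0.53 and 0.53. VCAN, which encodes a matrix proteoglycan, had 94.0 ± 20.1 CPM on Day 10 and 624.4 ± 361.2 CPM on Day 12. The genes nearest to SOCS3 were LOC100516606, PCCB and LRP10, at 0.32, 0.32 and 0.33, and PCCB, a subunit of a mitochondrial carboxylase, went from 47.2 ± 7.13 CPM on Day 8 to 141.1 ± 34.6 CPM on Day 10. These values describe likeness in 30 embryos that share days, and carry no test.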

How the data were processed

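Embryos were frozen singly, and stranded mRNA libraries were made from each. The authors trimmed the reads, mapped them to the NCBI release of Sscrofa11.1 and left out genes of low CPM. The aligner, counting tool and cutoff are not given in the sources used here. The deposited tables hold unnormalized read counts by gene, in 1 table of 13103 genes for 30 embryos and tables of 11405, 11675 and 12220 genes for Days 8, 10 and 12. In the first table each gene reached 0.5 CPM in 4 embryos or more.

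Tests used R 4.3.3, edgeR 4.0.16 (quasi-likelihood test, robust, with TMM scaling, in 1 fit of 3 days, or the table of a day for sex), limma 3.58.1 and DESeq2 1.42.0. The SE is the size of the log2 fold change over the square root of F. Ratios used Python 3.11.15 with numpy 2.4.6, pandas 2.3.3 and scipy 1.17.1, and figures matplotlib 3.10.9. The study named a robust GLM, used here as an alternative. Scripts were tested on simulated data.

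The members, the lists of pathway and marker genes, and the tests were chosen with earlier results of these data known. Some listed genes are not reported here and were taken out of every count over the lists after the results were seen. All members were named, with up to 2 largest rises and 2 largest falls among the DEG of each role and interval, and the 3 genes nearest in course to IL6ST, STAT3 and SOCS3. The markers given by name beside STAT3 and beside the marker sums, and the statement on HAND1, were chosen after their values were seen. Positions came from the RefSeq gene table of Sscrofa11.1. Ratios and likeness planned for LIFR were not computed, and levels were not compared between genes, as no transcript lengths were used.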

Additional observations from a re-analysis of the deposited data

Results flagged for a closer look

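Of 90 groups of 5 or 10 embryos, 8 held a highest or lowest embryo with a gap to the next that was large for the range of its group by Dixon's criterion, where chance gives about 1 in 20. IL6ST stood at 87.6 CPM in Day 10 female d10_f_336, with the next embryo at 68.2 CPM among all 10 and at 59.0 CPM among the females. JAK1 was low in Day 10 female d10_f_433, at 27.2 CPM against 30.9 in the next. SOCS1 was high in Day 8 male d08_m_121, at 3.17 CPM against 2.01 among all embryos of the day and 1.82 among the males. In Day 12 female d12_f_245, the smallest library, SOCS1 stood at 14.8 CPM against 8.10 in the next, both among all 10 and among the females, and the log2 ratio of IL6R to IL6ST was -0.63 against -2.29.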

How the results depend on the processing

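The changes of STAT3, OSMR and SOCS1 between Days 10 and 12 and of SOCS3 between Days 8 and 10 remained DEG under every alternative run, which included each embryo left out. The 10 calls of members, as 130 values, remained in 123 and were lost in 7, all of IL6R. Between Days 8 and 10 IL6R fell short with the robust GLM (-0.99), in females (-0.76), in males (-1.29) and when tested against 1 on the log2 scale (-1.05), each leaving 1 member, and without single embryos the count ran from 1 to 2. Between Days 8 and 12 it fell short in females (-1.04), in males (-1.57) and against 1 (-1.29). An FDR under 0.05 alone gave 3, 6 and 8 members in the 3 comparisons, where 56.1%, 59.7% and 73.3% of all genes passed it, and 25 and 37 pathway genes in the 2 intervals, where the main limits gave 7 and 20. The cause was not tested, beyond the fewer embryos or other limits of these settings.

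Library size alone moved the median of all genes by -0.18 and 0.20 in the 2 intervals and the calls to 1027 higher and 811 lower (from 1295 and 550) and to 2396 and 891 (from 1951 and 1099). It turned the sign of IL6ST (-0.11), JAK2 (-0.16) and STAT3 (-0.16) between Days 8 and 10 and of JAK1 (0.001) between Days 10 and 12, none of them DEG. Other turned signs were near 0: JAK2 (-0.031), STAT3 (-0.026) and PIM1 (0.013) in females and IL6ST (-0.04) in males between Days 8 and 10, JAK1 (-0.14) in females between Days 8 and 12, and SOCS3 between Days 10 and 12 with the robust GLM (-0.017), 2 days (-0.017) and males (-0.11). Without single embryos the ranges that crossed 0 were -0.001 to 0.12 for IL6ST, -0.018 to 0.048 for JAK2, -0.083 to 0.085 for STAT3, -0.125 to 0.028 for PIM1 and, in the later interval, -0.077 to 0.063 for SOCS3. In females the ratio of IL6R to IL6ST passed the test between Days 10 and 12 (0.997) and that of SOCS3 to STAT3 did not (-2.31). Each embryo left out, and Day 12 females d12_f_245 and d12_f_271 left out together, were chosen after seeing the data. Between sexes the quasi-likelihood test called 75, 26 and 15 of all genes on the 3 days, the robust GLM 156, 42 and 101, DESeq2 between 53 and 168, and a fit of all 30 embryos 36, 28 and 2658, with 0 members in each. No paired analysis of the sexes within a litter was possible, because the gilt of each embryo was not stated and the groups share no replicate numbers. Among the genes analysed, FGG had 3 counts or fewer in 15 embryos, JAK3 in 2 and LIF in 1, and no member in any.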
